A study of Mus musculus with 8 samples.

Results

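Eukaryotic translation initiation factors are the proteins that bring the initiator tRNA, the messenger RNA and the ribosomal subunits together at the start codon. The genes described here are the protein-coding genes of the deposited table whose mouse symbols begin with Eif1 to Eif6. The eIF2 kinases were left out, and the rule found 51 of the 55335 deposited gene identifiers. The RNA came from RAW264.7, a macrophage-like mouse tumour line, after 3 days of culture with 1 of 2 bone scaffold materials. One group was cultured with hydroxyapatite doped with magnesium ions (HA/Mg) and the other with the Trio-Active bone scaffold (TABS), with 4 libraries in each group, numbered 5 to 8 in both. All libraries came from the same line, and the labels describe no cells without a scaffold, which leaves TABS against HA/Mg as the only comparison. The sample titles gave the groups, and the sample descriptions tie the column letters H and L to TABS and HA/Mg. An exchange of these letters would reverse every direction. Separate cultures are not mentioned for the libraries of a group. A p-value here weighs the difference between the groups against the spread of these libraries only, and that spread may be technical.

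Initiation begins when eIF2 carries the initiator tRNA and GTP to the small ribosomal subunit. There eIF1, eIF1A, eIF3 and eIF5 join it, while the cap-binding eIF4 factors recruit and unwind the messenger RNA. On the start codon eIF5 triggers hydrolysis of the GTP held by eIF2, eIF1 leaves, and eIF5B brings in the large subunit. eIF2B then exchanges the spent GDP on eIF2 for GTP. Phosphorylation of eIF2 blocks that exchange and is a known brake on protein synthesis in stressed and infected macrophages.

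Values are FPKM, a fragment count divided by the transcript's length and the library's mapped total. Of the 51 genes 48 reached 1 FPKM in at least 4 of the 8 libraries and were tested. Eif4e1b and Eif5a2 were listed at 0 in every library, and Eif4ebp3 reached 0.344 FPKM at most. Eif4ebp3 shares exons on the same strand with the protein-coding gene AC115631.1, at 11.3 to 16.6 FPKM, so its value may be affected by read assignment. The low values of the table implied 19700000 to 23600000 fragments per library. These depths are estimates, since 26.9% to 28.8% of the low values came within 0.05 fragment of a whole number. Of 10 macrophage markers 9 were tested, and their summed level was 2493 to 2794 FPKM with TABS and 2060 to 2457 FPKM with HA/Mg. The tenth, Mrc1, was at most 0.0148 FPKM. Cd68, Csf1r and Cd14 rose and the other 6 tested did not pass, while 5.07% of all genes tested rose. The part of these markers in the values below was not tested. The call of Cd68 ended without HA/Mg replicate 5, 7 or 8 (adjusted p between 0.0531 and 0.0660) and that of Cd14 without HA/Mg replicate 5 (adjusted p = 0.0581). Adgre1 passed when trends with transcript length and GC content were removed (adjusted p = 0.0457). The summed markers of osteoblasts and fibroblasts reached at most 0.405 FPKM, with Bglap and Alpl at 0. Those of epithelial and endothelial cells reached 0.439 FPKM, with Epcam, Krt18 and Cdh1 at 0. Those of T, B and NK cells reached 0.0235 FPKM, with all but Cd3d at 0.

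eIF1 and eIF5 set how strictly the ribosome keeps to start codons in a favourable surrounding, and both are known to be controlled through start codons in their own messages. Start codons before the annotated one, such as any in the 374 bases before it in Eif5, are not shown here. The bases around the annotated start codon are shown for both, for the copy Eif1b, and for members whose levels are described below. They are from the APPRIS principal transcript in GENCODE M21 (GRCm38), 5′ to 3′, with the start codon in capitals, 9 bases before it and 3 after.
Eif1: tcgtatcgtATGtcc
Eif1b: tagtgtcgcATGtcc
Eif5: taagccaaaATGtct
Eif5b: tgacaagcgATGggg
Eif2s1: cacttcagaATGccg
Eif2s3x: ccgagcaagATGgct
Eif2s3y: gtgagcaagATGgcg
Eif2b2: gtgttggaaATGccg
Eif3a: accgtcaagATGccg
A favourable surrounding has a purine 3 bases before the start codon and a G right after it. Of 47 tested members with such a start codon, 21 had both, 21 had the purine only, 2 had the G only and 3 had neither. Among 8897 tested genes the shares were 47.7%, 39.6%, 6.81% and 5.87%. The members with neither were Eif1, Eif1b and Eif3b, named after their sequences were seen, and Eif5 had the purine only. Of the 16 members that fell, 9 had both and 7 the purine only.

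Lower in cells cultured with TABS were 16 of the 48 tested initiation factor genes, and 1 was higher. Eif5, the gene of the factor that activates GTP hydrolysis by eIF2, was 1.98-fold lower, and the other 15 were 1.10-fold to 1.39-fold lower. The 15 included the genes of all subunits of eIF2 and the large subunit Eif3a of eIF3. Eif2b2, a regulatory subunit of eIF2B, was the 1 gene that rose. Calls required an adjusted p under 0.05 in limma, fitted on log2(FPKM + 1) over 10161 genes. Of all these genes 13.1% fell and 5.07% rose, against 33.3% and 2.08% of the members. The median log2 change was -0.11 over the members and -0.04 over all genes tested. The groups did not overlap for 17 members that were lower with TABS (35.4%, against 15% of all genes) and for 1 that was higher (against 8.05% of all genes).

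These counts moved with single libraries, and so did those over all genes tested. Leaving out HA/Mg replicate 5 or 7 left 6 members lower and 0 higher (22 of the 48 members lay at an unadjusted p under 0.05 in limma in each case). Of all 10161 genes, 321 and 347 were then lower and 108 and 128 higher. Those at an unadjusted p under 0.05 in limma were 2900 and 2837. Leaving out TABS replicate 5 or HA/Mg replicate 8 left 8 members lower, TABS replicate 7 or 8 left 9, and TABS replicate 6 left 11. Between 510 and 891 of all genes were lower in these fits. Without HA/Mg replicate 6, 19 members were lower and 6 higher, and of all genes 2452 were lower and 868 higher. Of the 17 calls, 6 held whichever library was left out: Eif5, Eif3a, Eif2a, Eif2s1, Eif2s2 and Eif2s3x. The matching share of all called genes is not given here, so these 6 cannot be read against a background.

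**Figure D1:**
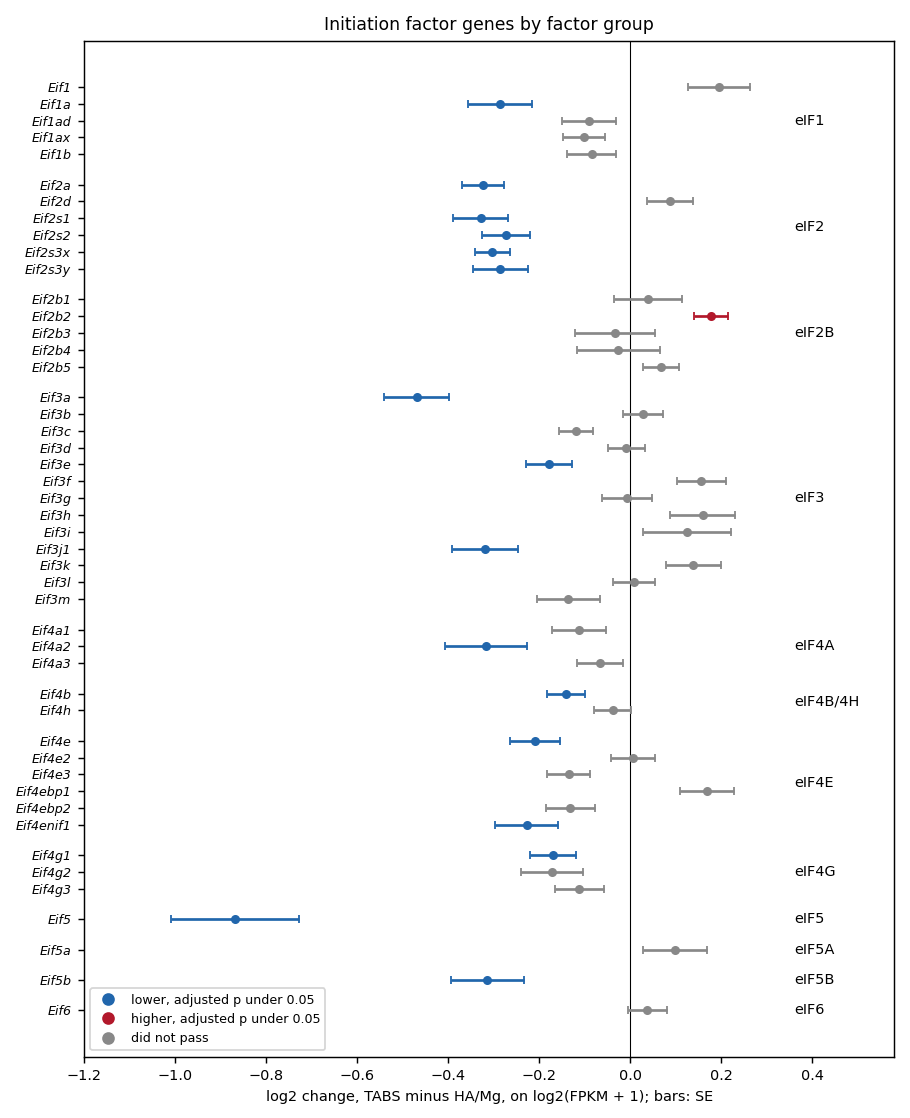
Log2 change (TABS minus HA/Mg, on log2(FPKM + 1)) on the horizontal axis for 47 tested initiation factor genes, in factor groups, with standard errors as bars. Blue points fell, the red point rose and grey points did not pass. Eif5 at -0.87 lies apart from the next gene, Eif3a at -0.47. Eif3j2, listed at 0 in 3 libraries, is left out.

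With the libraries of each group in the order 5 to 8, here and throughout, Eif5 stood at 4.66, 4.97, 6.78 and 5.99 FPKM with TABS and at 11.4, 8.34, 11.2 and 13.4 FPKM with HA/Mg. All TABS libraries lay below all HA/Mg libraries, and the nearest pair was TABS replicate 7 and HA/Mg replicate 6. The means were 5.60 ± 0.972 and 11.1 ± 2.06 FPKM (SD, n = 4 each). Eif5 fell by 0.87 ± 0.14 on the log2 scale (SE, limma adjusted p = 0.00971). Without HA/Mg replicate 6 the log2 change was -0.99, and the highest adjusted p with any 1 library left out was 0.0419. For its longest transcript of 4050 bases these levels imply 397 to 1273 fragments. Counting alone then gives an error of 2.80% to 5.02%, and other sources of error are not in that range.

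Eif5 (ENSMUSG00000021282) spans bases 111538016 to 111546752 of chromosome 12 in GRCm38, plus strand, with 17 annotated transcripts. Its values are over the whole gene and do not separate them. No other gene at 1 FPKM in at least 4 libraries shares its exons, and the small nucleolar RNA gene Snora28 inside it was at most 0.0629 FPKM. The bases before the start of Eif5 and of Eif2b2 are shown, since these genes fell the furthest and rose. They are from the RefSeq promoter table (GRCm38.p6), on the plus strand, up to the base before the gene's start in GENCODE. Capitals mark the GC box GGGCGG and the CCAAT box CCAAT on either strand.
Eif5, chr12:111537851-111538015: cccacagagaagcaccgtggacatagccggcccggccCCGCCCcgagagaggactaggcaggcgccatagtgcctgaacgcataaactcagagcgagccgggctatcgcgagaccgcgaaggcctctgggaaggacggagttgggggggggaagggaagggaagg
Eif2b2, chr12:85219231-85219480: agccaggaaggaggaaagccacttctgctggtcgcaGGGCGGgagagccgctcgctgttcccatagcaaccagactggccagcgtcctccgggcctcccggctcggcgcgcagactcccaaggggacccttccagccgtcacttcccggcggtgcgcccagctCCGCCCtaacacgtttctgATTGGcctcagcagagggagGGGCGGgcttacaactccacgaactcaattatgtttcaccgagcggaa
Over the 250 bases before the RefSeq start, 30 of the 39 members found in that table held a GC box, against 32.7% of all 32851 promoters. A CCAAT box was in 12 of the 39, against 33.8%, and the E-box CACGTG in 9 of the 39, against 6.02%. Members were counted by gene, once if any of their promoters held the motif. The shares are by promoter, over genes expressed here or not, so the 2 cannot be compared directly. Of the 14 matched members that fell, 11 held the GC box, 2 the CCAAT box and 2 the E-box. Eif5 held 2 GC boxes in these 250 bases, 1 of them outside the part shown, and Eif2b2 held 3. None of the 3 motifs contains another, and a match describes the sequence only.

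**Figure D2:**
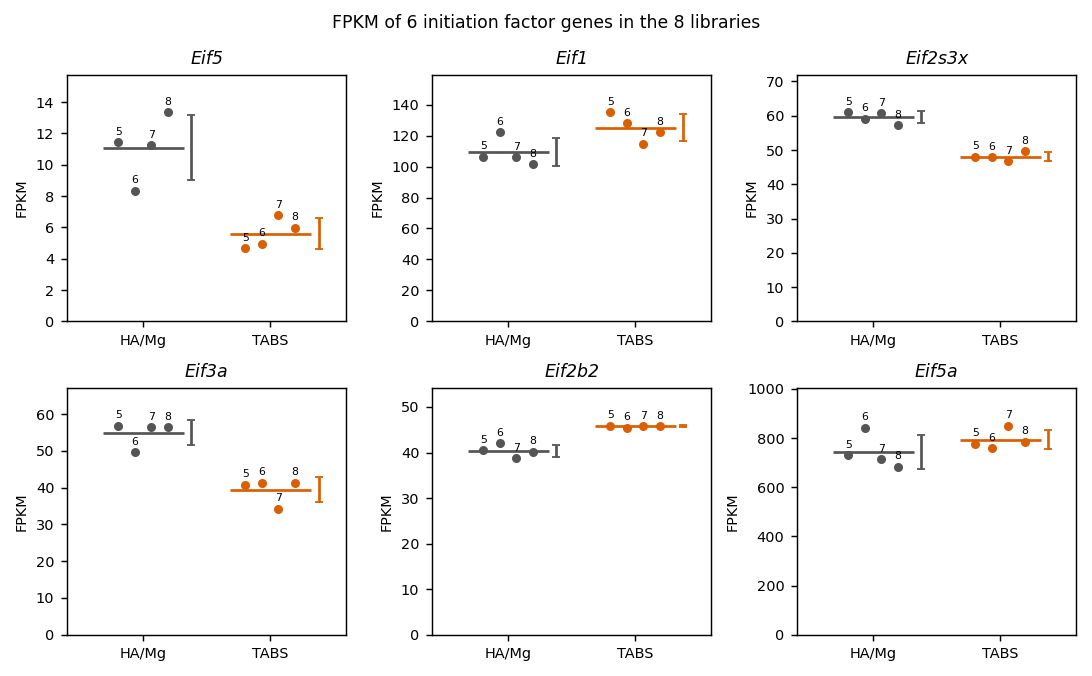
FPKM of 6 initiation factor genes in each library, with the replicate number above each point, the group mean as a line and the SD as a bar. Eif5, Eif2s3x and Eif3a lie lower in all 4 TABS libraries and Eif2b2 lies higher, while Eif1 and Eif5a overlap between the groups.

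Set against the other members, Eif5 was low in level as well as in change. Among the 48 tested members its FPKM ranked 44 to 47 from the top in the TABS libraries and 39 to 44 in the HA/Mg libraries. The log2(FPKM + 1) of Eif5 minus the median of the other 47 members was -2.89, -2.83, -2.34 and -2.60 with TABS. It was -1.97, -2.27, -1.94 and -1.57 with HA/Mg, so the groups did not overlap. The median of the others was itself 38.5 to 41.5 FPKM with TABS and 41.6 to 47.6 FPKM with HA/Mg. The distance of Eif5 from that median thus differed by -0.73 on the log2 scale between the groups (-2.67 ± 0.25 against -1.94 ± 0.29, SD, n = 4 each). It carries no test, because the members were chosen with earlier results known. The next lowest change among members above 0 in all libraries was -0.47, and over all 10161 genes 6 had a change below that of Eif5. Those 6 included Eif3j2, described below.

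eIF1 holds the scanning ribosome in the open form that eIF5 helps to close. Eif1 stood at 135, 128, 115 and 122 FPKM with TABS and 106, 122, 106 and 102 FPKM with HA/Mg. TABS replicate 7 lay below HA/Mg replicate 6, TABS replicate 8 lay level with it, and the gene did not pass (log2 change 0.20 ± 0.07, adjusted p = 0.0743). It passed without HA/Mg replicate 6 (adjusted p = 0.0144). The ratio of Eif1 to Eif5 in FPKM was 29.0, 25.7, 16.9 and 20.4 with TABS and 9.31, 14.7, 9.45 and 7.61 with HA/Mg. TABS libraries therefore all had the higher ratio, with means of 23.0 ± 5.38 and 10.3 ± 3.05 (SD, n = 4 each, not tested).

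Of the 5 tested genes with an Eif1 name 1 fell, while 13.1% of all genes tested fell. Eif1a, which encodes the scanning factor eIF1A, was at 7.06, 7.11, 5.88 and 6.43 FPKM with TABS and 8.45, 7.62, 8.20 and 8.85 FPKM with HA/Mg, without overlap (log2 change -0.29 ± 0.07, adjusted p = 0.0264). Its call ended without any 1 of HA/Mg replicates 5, 7 and 8 and TABS replicates 7 and 8 (adjusted p between 0.0577 and 0.0809). The X-linked copy Eif1ax is 85.6% identical to it in coding sequence and had a log2 change of -0.10 ± 0.05 (adjusted p = 0.145). Reads may have been split between such copies. Eif1b and Eif1ad did not pass, and Eif1ad shares exons with Banf1 on the other strand.

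All 4 genes of the eIF2 subunits fell, while 13.1% of all genes tested fell. Among the 4 are 2 copies of the gamma subunit on the X and Y chromosomes. Eif2s1, the alpha subunit that the stress kinases phosphorylate, was at 23.5, 25.8, 24.5 and 27.6 FPKM with TABS and 32.4, 29.7, 33.4 and 32.9 FPKM with HA/Mg (log2 change -0.33 ± 0.06, adjusted p = 0.0126). Eif2s2, the beta subunit to which eIF5 binds, was at 21.1, 23.0, 21.3 and 23.9 FPKM against 26.2, 26.2, 27.9 and 28.3 FPKM (log2 change -0.27 ± 0.05, adjusted p = 0.0138). In neither gene did the groups overlap, and within each group the highest value exceeded the lowest by less than the gap between the group means.

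The gamma subunit, which binds GTP and the initiator tRNA, is encoded by Eif2s3x and Eif2s3y. Eif2s3x was at 48.1, 47.8, 46.7 and 49.7 FPKM with TABS and 61.0, 59.1, 60.8 and 57.2 FPKM with HA/Mg (log2 change -0.30 ± 0.04, adjusted p = 0.00851). Eif2s3y was lower in level, at 11.4, 11.2, 10.1 and 11.4 FPKM against 13.5, 12.5, 14.5 and 14.1 FPKM, with a log2 change of -0.29 ± 0.06 (adjusted p = 0.0174). The X and Y copies were thus 1.24-fold lower each. Their coding sequences are 86.3% identical over 1416 bases, so shared reads may link their values. The call of Eif2s3y ended without HA/Mg replicate 5, 7 or 8 (adjusted p between 0.0515 and 0.0608).

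eIF2A and eIF2D carry the eIF2 name but are single proteins that can deliver initiator tRNA without eIF2. Eif2a fell, from 18.5, 16.7, 17.4 and 17.2 FPKM with HA/Mg to 13.8, 14.0, 13.3 and 14.0 FPKM with TABS (log2 change -0.32 ± 0.05, adjusted p = 0.00851). It shares exons with Serp1 on the other strand, which was at 110 to 125 FPKM, and the sources used here do not say whether counting used the strand. Eif2d did not pass (log2 change 0.09 ± 0.05, adjusted p = 0.240).

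eIF2B is the exchange factor that recharges eIF2 with GTP. Of its 5 subunit genes 1 rose and 4 did not pass, with a median log2 change of 0.04, while 5.07% of all genes tested rose. Eif2b2 was at 45.9, 45.5, 45.8 and 45.9 FPKM with TABS and 40.5, 42.1, 38.8 and 40.2 FPKM with HA/Mg. The TABS libraries, with an SD of 0.196 FPKM, all lay above the HA/Mg libraries, and the log2 change was 0.18 ± 0.04 (adjusted p = 0.0174). This call ended without HA/Mg replicate 5 or 7 (adjusted p between 0.0582 and 0.0630). Eif2b5, the catalytic subunit and the most abundant of the 5, was at 60.6 to 62.8 FPKM with TABS and 56.1 to 61.7 FPKM with HA/Mg (log2 change 0.07 ± 0.04, adjusted p = 0.244). The subunits did not share 1 level: Eif2b3 and Eif2b4 lay between 6.91 and 12.0 FPKM in all libraries.

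**Figure D3:**
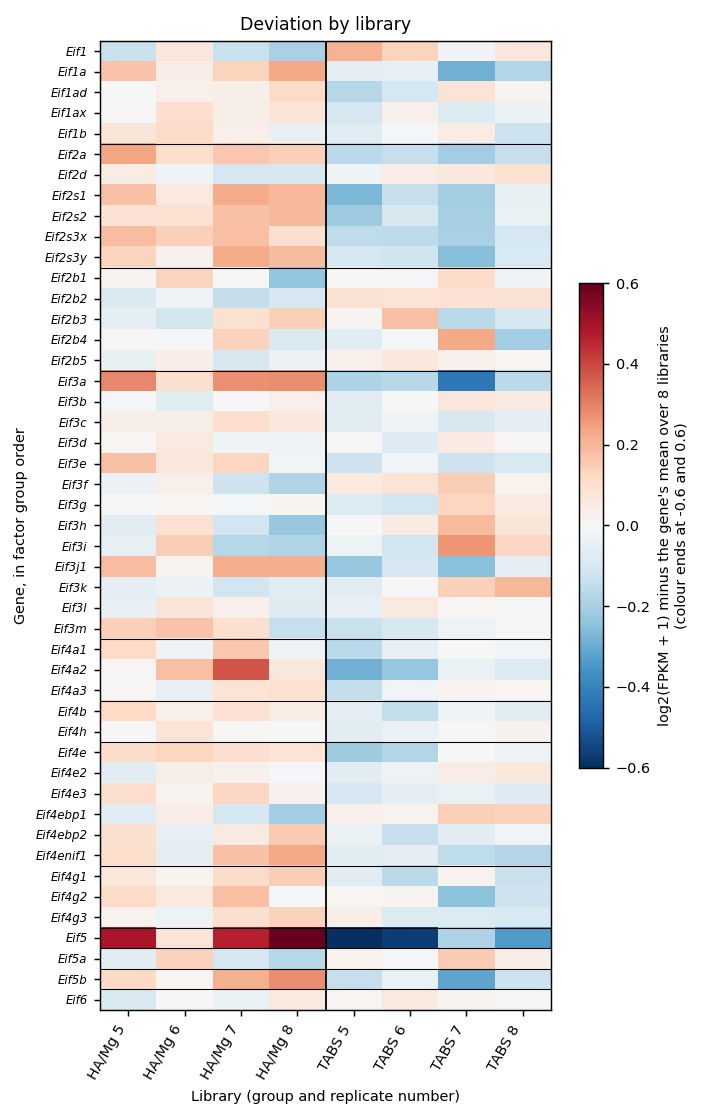
Deviation of log2(FPKM + 1) from each gene's mean over the 8 libraries, for 47 tested members in rows (factor groups separated by lines) and libraries in columns. Eif5, Eif3a and the eIF2 subunit genes are above their means in all 4 HA/Mg libraries and below in all 4 TABS libraries. Among the HA/Mg libraries Eif5 and Eif3a are closest to 0 in replicate 6.

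eIF3 is the large scaffold that binds the small ribosomal subunit, and 14 of its genes were tested. Of these 3 fell and 11 did not pass, with a median log2 change of -0.01, while 13.1% of all genes tested fell. Eif3a, the largest subunit, was at 40.8, 41.4, 34.3 and 41.4 FPKM with TABS and 56.9, 49.8, 56.5 and 56.6 FPKM with HA/Mg. It was lower in every TABS library than in any HA/Mg library, by 0.47 ± 0.07 on the log2 scale (adjusted p = 0.00859). Eif3a (ENSMUSG00000024991) covers bases 60761117 to 60790658 of chromosome 19, minus strand.

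Eif3e, which encodes a subunit of the outer part of the complex, was at 38.5, 41.5, 38.5 and 39.4 FPKM with TABS and 47.6, 44.1, 46.1 and 41.6 FPKM with HA/Mg (log2 change -0.18 ± 0.05, adjusted p = 0.0405). TABS replicate 6 and HA/Mg replicate 8 all but touched, and the call ended without any 1 of HA/Mg replicates 5 and 7 and TABS replicates 5, 7 and 8 (adjusted p between 0.0777 and 0.115). Eif3j1, a loosely bound subunit, was at 3.20, 3.57, 3.13 and 3.72 FPKM against 4.58, 3.98, 4.70 and 4.70 FPKM (log2 change -0.32 ± 0.07, adjusted p = 0.0206, or 0.0506 to 0.0678 without any 1 of HA/Mg replicates 5, 7 and 8 and TABS replicates 5 and 7). Eif3j1 shares exons with Spg11 on the other strand, at 5.56 to 6.94 FPKM. The copy Eif3j2 has a coding sequence 99.2% identical to that of Eif3j1, so the 2 cannot be kept apart with confidence. Eif3j2 was listed at 8.07, 9.17, 0 and 0 FPKM with TABS and 12.3, 10.4, 0 and 11.7 FPKM with HA/Mg. The log2 change of Eif3j2 (-1.10 ± 1.05, adjusted p = 0.478) therefore rests on which libraries list it at 0.

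The most abundant eIF3 gene was Eif3h, at 413, 426, 470 and 433 FPKM with TABS and 392, 439, 380 and 351 FPKM with HA/Mg, where HA/Mg replicate 6 lay among the TABS libraries (log2 change 0.16 ± 0.07, adjusted p = 0.141). It passed without HA/Mg replicate 6 (adjusted p = 0.0263). Eif3c did not pass although its groups did not overlap (244 to 256 FPKM with TABS and 266 to 280 FPKM with HA/Mg, adjusted p = 0.0559). Levels across the subunits, which join in 1 complex, ran from the single-digit values of Eif3j1 to those of Eif3h.

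The eIF4 factors bind the cap and unwind the message. Of the 14 tested genes with an Eif4 name 5 fell and 9 did not pass, while 13.1% of all genes tested fell. The median log2 change of the 14 was -0.13. The 14 include genes with other roles, such as the inhibitor Eif4ebp1 and the carrier Eif4enif1. Eif4e, the cap-binding protein, was at 24.0, 24.7, 28.0 and 27.4 FPKM with TABS and 30.3, 30.8, 30.0 and 29.7 FPKM with HA/Mg (log2 change -0.21 ± 0.06, adjusted p = 0.0332). TABS replicates 5 and 6 were the lowest. The call ended without any 1 of HA/Mg replicates 5, 7 and 8 and TABS replicates 5 and 6 (adjusted p between 0.0710 and 0.0880). Eif4enif1, which carries eIF4E into the nucleus, was at 8.14 to 8.94 FPKM against 8.94 to 11.1 FPKM (adjusted p = 0.0491).

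Eif4g1, the scaffold that joins eIF4E to the helicase, was at 105, 98.7, 112 and 101 FPKM with TABS and 116, 112, 119 and 122 FPKM with HA/Mg (log2 change -0.17 ± 0.05, adjusted p = 0.0459). It was the 1 called member whose groups overlapped, TABS replicate 7 lying just above HA/Mg replicate 6. Eif4b, a partner of the helicase, was at 149 to 162 FPKM against 169 to 179 FPKM (log2 change -0.14 ± 0.04, adjusted p = 0.0452). Eif4a2, a form of the helicase with 25 annotated transcripts, was at 9.24 to 11.2 FPKM against 11.6 to 15.3 FPKM (log2 change -0.32 ± 0.09, adjusted p = 0.0406), and it shares exons with Rfc4 on the other strand. Each of Eif4a2, Eif4b and Eif4enif1 lost its call without any 1 library other than HA/Mg replicate 6 (adjusted p between 0.0522 and 0.133). Eif4g1 did so without any 1 other than TABS replicate 7 and HA/Mg replicate 6 (adjusted p between 0.0812 and 0.120).

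The main helicase gene Eif4a1 was at 200 to 224 FPKM with TABS and 219 to 250 FPKM with HA/Mg and did not pass (log2 change -0.11 ± 0.06, adjusted p = 0.197). Eif4h, a smaller partner, did not pass either, at 30.7 to 32.9 FPKM against 32.2 to 34.1 FPKM. The inhibitor Eif4ebp1, which holds eIF4E away from eIF4G1 until it is phosphorylated, was at 129, 129, 140 and 140 FPKM with TABS and 121, 131, 118 and 109 FPKM with HA/Mg (log2 change 0.17 ± 0.06, adjusted p = 0.0734). It passed without HA/Mg replicate 6 (adjusted p = 0.0188), which lay above TABS replicates 5 and 6.

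Eif5b, the factor that joins the ribosomal subunits, was at 5.50, 5.95, 4.74 and 5.53 FPKM with TABS and 6.77, 6.22, 7.30 and 7.69 FPKM with HA/Mg (log2 change -0.31 ± 0.08, adjusted p = 0.0295). The groups did not overlap, and the call ended without any 1 of HA/Mg replicates 5, 7 and 8 and TABS replicates 5, 7 and 8 (adjusted p between 0.0539 and 0.0877). It shares exons with Rev1 on the other strand, at 1.56 to 3.45 FPKM. Eif5a, the hypusine-bearing factor that helps ribosomes through difficult stretches, had the highest level of all members, at 777, 760, 851 and 785 FPKM against 731, 842, 713 and 684 FPKM. HA/Mg replicate 6 lay among the TABS libraries, and the gene did not pass (log2 change 0.10 ± 0.07, adjusted p = 0.337, or 0.0466 without that library). Eif6, which keeps the ribosomal subunits apart, was at 66.6 to 69.8 FPKM against 62.8 to 69.9 FPKM (log2 change 0.04 ± 0.04, adjusted p = 0.550). Of the 3 tested genes named for eIF5, eIF5A and eIF5B, Eif5 and Eif5b thus fell and Eif5a did not pass. The share of all genes tested that fell was 13.1%.

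The members that fell had transcripts lower in G and C. Their GC content was 36.2% to 54.2% with a median of 41.2%, against a median of 50.9% for the members that did not pass and 49.8% for all genes tested. Over 47 members without Eif3j2, Spearman's correlation of the log2 change was 0.64 with GC content and -0.66 with transcript length. Among 10157 genes of all kinds the correlation with GC content was 0.54. These are correlations across genes that share the same 8 libraries, and genes are not independent replicates. In the lowest of 5 equal classes by GC content, 12 of 16 tested members fell, against 30.8% of all genes of that class. In the other 4 classes 4 of 32 members fell: 1 of 5, 2 of 13, 1 of 9 and 0 of 5 from low to high GC content. In the same order the shares over all genes were 21.3%, 9.26%, 3% and 0.935%. The eIF2 group had a median GC content of 40.4% and the eIF2B group 53.2%.

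**Figure D4:**
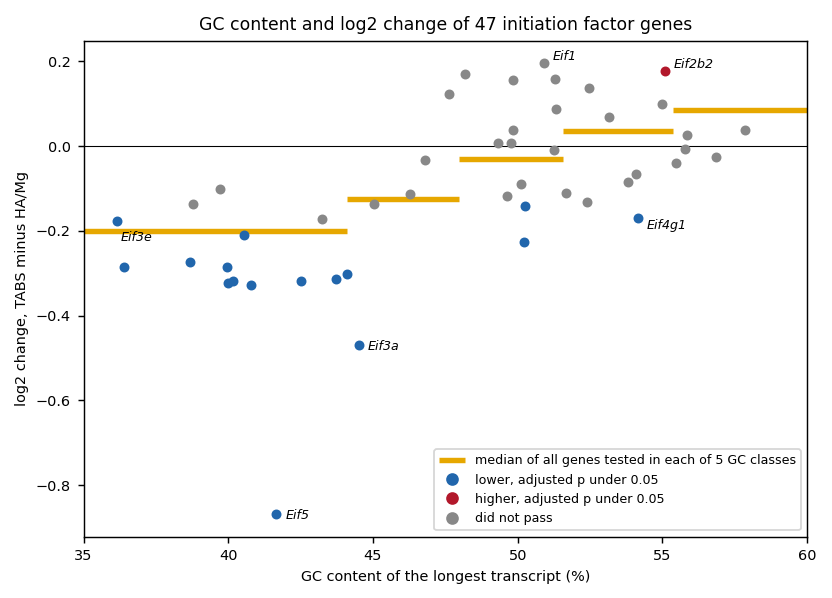
Log2 change (TABS minus HA/Mg) against the GC content of the longest transcript for 47 tested members, with the median of all genes tested in each of 5 GC classes as yellow lines (the end classes reach past the axis). Members lie lower toward low GC content, as all genes do. Eif5 and Eif3a lie below the line of their class, and so do other members, such as Eif2s1 and Eif4g1. From low to high GC content the members' medians, with Eif3j2 included, were -0.29, -0.11, 0.01, -0.07 and -0.01. Those of all genes were -0.20, -0.12, -0.03, 0.04 and 0.08.

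A further fit took out of every library the trends of its values with length and GC content. There 2 of the 48 members fell, Eif5 and Eif3a, and 0 rose. That is 4.17% of the members, a share near the background, since of all genes tested 3.78% fell, 2.59% rose and 6.37% did either. Eif5 had a log2 change of -0.67 ± 0.14 after the removal (adjusted p = 0.0318) and Eif3a one of -0.29 ± 0.04 (adjusted p = 0.0169). The eIF2 group's median log2 change went from -0.29 to -0.11, and the calls of Eif2a, Eif2s1, Eif2s2, Eif2s3x and Eif2s3y ended (adjusted p between 0.0966 and 0.499). Those of Eif1a, Eif3j1, Eif4a2, Eif4b, Eif4enif1, Eif4g1, Eif5b and Eif2b2 ended as well (adjusted p between 0.0598 and 0.410). Eif3e and Eif4e turned to 0.04 ± 0.07 and 0.01 ± 0.09. The changes of Eif4g1 and Eif4enif1 moved little, from -0.17 to -0.17 and from -0.23 to -0.18.

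**Figure D5:**
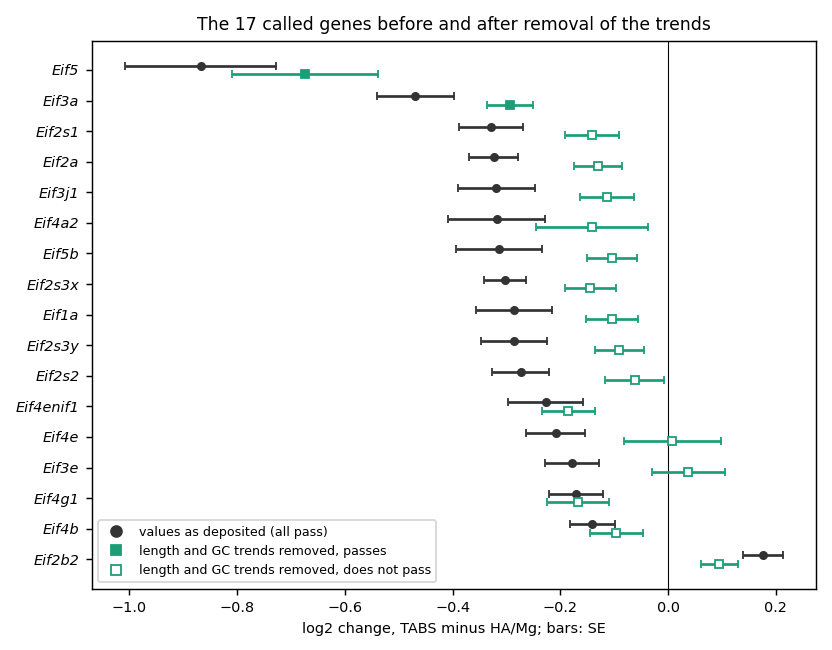
Log2 change (TABS minus HA/Mg) with its standard error for the 17 called members, from the values as deposited (black circles) and with each library's length and GC trends removed (green squares, filled where the adjusted p is under 0.05). The squares of Eif5 and Eif3a are filled, and the other 15 are open.

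Other genes of the pathway were read from lists chosen for their roles. Of 10 tested genes of the eIF2 kinases, their regulators, the phosphatase subunits and the downstream factors Atf4 and Ddit3, 3 fell and 7 did not pass. Their median log2 change was -0.21, and 13.1% of all genes tested fell. Ddit3, which encodes the stress transcription factor CHOP, was at 52.3, 62.9, 83.1 and 101 FPKM with TABS and 104, 120, 106 and 109 FPKM with HA/Mg (log2 change -0.59 ± 0.17, adjusted p = 0.0447). The groups nearly met, at TABS replicate 8 and HA/Mg replicate 5. Eif2ak3, the kinase PERK of the endoplasmic reticulum, was at 3.23, 3.97, 2.66 and 3.80 FPKM against 5.85, 3.57, 5.96 and 6.52 FPKM, with HA/Mg replicate 6 inside the TABS range (adjusted p = 0.0467). Eif2ak2, the kinase PKR that senses double-stranded RNA, was at 7.46 to 10.1 FPKM against 10.3 to 11.3 FPKM (adjusted p = 0.0477). The call of Ddit3 ended without any 1 library but TABS replicate 8, that of Eif2ak3 without any but HA/Mg replicate 6, and that of Eif2ak2 without any but TABS replicate 8 and HA/Mg replicate 6 (adjusted p between 0.0582 and 0.121). All 3 calls ended with the length and GC trends removed (adjusted p between 0.0611 and 0.534).

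Of 13 tested genes of mTORC1 and MNK signalling, the routes that regulate eIF4E and its binding proteins, 0 passed limma and 5 lay at an unadjusted p under 0.05. Among all 10161 genes 18.1% passed and 3703 lay at an unadjusted p under 0.05. Within the list the smallest p was that of Rheb, the small GTPase that activates mTORC1 (log2 change -0.14 ± 0.05, adjusted p = 0.0744). The median log2 change of this list was -0.01.

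Of 18 tested initiation helpers without an Eif name, 8 fell and 10 did not pass, with a median log2 change of -0.16. The share that fell over all genes was 13.1%. With the length and GC trends removed, 1 of the 18 fell, Pdcd4, against 3.78% of all genes. Bzw1, Bzw2, Mcts1, Dhx29 and Ddx3x, which complete the 8 with the genes described next, then did not pass (adjusted p between 0.0728 and 0.759), and Bzw1 turned from a log2 change of -0.17 to 0.02. The calls of these 5 also ended without any 1 of HA/Mg replicates 5, 7 and 8, and that of Bzw2 without any single library. Pdcd4, an inhibitor that sequesters the eIF4A helicase, was at 2.61, 2.86, 2.44 and 3.10 FPKM with TABS and 4.68, 3.82, 4.17 and 4.22 FPKM with HA/Mg, without overlap (log2 change -0.48 ± 0.08, adjusted p = 0.00971). Its call held with any 1 library left out and with the length and GC trends removed (adjusted p = 0.0268). Abce1, which splits ribosomes for a new round, was at 29.5 to 31.7 FPKM against 36.0 to 40.7 FPKM (log2 change -0.33 ± 0.05, adjusted p = 0.00859, or 0.0734 with the trends removed). Paip2b, which binds the poly(A)-binding protein, was at 9.55 to 10.7 FPKM against 11.6 to 11.9 FPKM (adjusted p = 0.0207). The call of Paip2b ended without any 1 of HA/Mg replicates 5, 7 and 8 and TABS replicate 7 (adjusted p between 0.0507 and 0.0673) and with the trends removed (adjusted p = 0.356).

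Of 15 tested elongation and termination factors 3 fell and 12 did not pass, with a median log2 change of 0.05. Over all genes tested the share that fell was 13.1%. Etf1, the release factor that reads stop codons, was at 49.1, 52.8, 47.8 and 52.8 FPKM with TABS and 69.7, 60.5, 68.2 and 67.6 FPKM with HA/Mg (log2 change -0.39 ± 0.06, adjusted p = 0.00859). Its groups did not overlap, and it passed with any 1 library left out and with the trends removed (adjusted p = 0.0225). Its partner GTPase Gspt1 (28.0 to 38.8 FPKM against 38.1 to 46.3 FPKM, adjusted p = 0.0406) and the ribosome rescue factor Hbs1l (15.2 to 16.8 FPKM against 17.0 to 20.1 FPKM, adjusted p = 0.0335) also fell. Gspt1 lost its call without any 1 library but TABS replicate 8 and HA/Mg replicate 6, and Hbs1l without any but TABS replicate 5 and HA/Mg replicate 6 (adjusted p between 0.0514 and 0.111). With the trends removed, 1 of the 15 fell, Etf1, against 3.78% of all genes. Gspt1 and Hbs1l then did not pass (adjusted p = 0.179 and 0.0728).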

How the data were processed

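RNA of RAW264.7 cells was sequenced in 8 libraries, 4 per group. Per the labels' protocols, RNA was extracted with TRIzol, libraries were made with a NEBNext Ultra kit and paired-end reads came from a NovaSeq. Per the submitters' processing notes, fastp, STAR, DESeq2 and GRCm38 were used. The sources used here do not give versions, the tool behind the FPKM, the annotation or the use of strand. The authors deposited FPKM values for 55335 identifiers, of which 55154 matched GENCODE M21 (GRCm38). Counts were not used here.

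Genes at 1 FPKM in at least 4 libraries were fitted on log2(FPKM + 1) with limma 3.58.1 (R 4.3.3, empirical Bayes with a mean-variance trend), two-sided, with Benjamini-Hochberg adjustment over 10161 genes. Log2 changes understate those of low genes. The main limma fit was tested on simulated data, with independent noise and no trend with length or GC content. Trends on length and GC content (of the longest transcript, as splines with 4 degrees of freedom) were removed per library as an alternative. Others were the pseudocount, filter, scaling, moderation, array weights, a block and each library left out. Named were all called members, the most abundant member of each factor group, and up to 3 called genes per pathway list (else the smallest p). The members and lists were chosen with earlier results of these data known. Other members named, and the motifs and sequences shown, were chosen after values were seen.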

Additional observations from a re-analysis of the deposited data

Results flagged for a closer look

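In groups of 4 libraries, 5 of 96 group values tested over the 48 members had 1 library far from the other 3 (a gap to the nearest, over the group's range, above Dixon's 95% critical value). Chance flags about 5% of such groups. Eif3a was lowest in TABS replicate 7 at 34.3 FPKM, with the next library at 40.8 FPKM, and lowest in HA/Mg replicate 6 at 49.8 FPKM, with the next at 56.5 FPKM. Eif3j2 was listed at 0 in HA/Mg replicate 7, with the next library of that group at 10.4 FPKM. Eif4g3, a relative of Eif4g1, was highest in TABS replicate 5 at 14.5 FPKM, with the next at 13.3 FPKM. Eif4h was highest in HA/Mg replicate 6 at 34.1 FPKM, with the next at 32.4 FPKM.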

How the results depend on the processing

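The number of members lower with TABS (16) was 7 with no filter on low values, where 22906 genes were tested, 10 with median-of-ratios scaling, 2 with the length and GC trends removed, and 6 to 19 with 1 library left out. The number higher (1) was 5 with array weights, 0 with the trends removed, and 0 to 6 with 1 library left out. Over all genes tested, 1327 were lower as deposited, 588 with no filter and 1033 with median-of-ratios scaling. With the trends removed 384 were lower, and with 1 library left out 321 to 2452. As for genes higher, there were 515 as deposited, 1048 with array weights, 263 with the trends removed, and 108 to 868 with 1 library left out. With a replicate block, limma called 0 members lower and 0 higher, without or with the trends removed, and 0 of all 10161 genes. At an unadjusted p under 0.05 in limma lay 20 and 11 members, and 2987 and 2224 of all genes. The replicate numbers were not taken to pair the libraries, since same-numbered deviations correlated at 0.01, -0.27, -0.16 and 0.13, and not every library correlated best with its own number. Under the block the adjusted p of Eif5 was 0.0589 (log2 change -0.87), and 0.0898 with the trends removed as well (log2 change -0.67). Eif5 passed in all the other alternatives, and its log2 change was -0.99 to -0.78 with 1 library left out. Eif3e and Eif4e reversed with the trends removed, to 0.0379 and 0.00771, with or without the block. The cause was not tested. Among all genes, the share of called genes that were higher was 28% as deposited, 45.5% with median-of-ratios scaling, 40.3% with quantile normalization, 13.9% after rescaling to equal sums and 40.6% with the trends removed. The depths are estimates from FPKM, and no count test was run.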
